A study of Mus musculus with 16 samples.

Results

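The transforming growth factor beta (TGF-beta) genes described here were 9 genes listed by symbol: the ligands Tgfb1, Tgfb2, Tgfb3 and Inhba, the receptors Tgfbr1 and Tgfbr2, the signal transducer Smad3, the inhibitor Smad7, and the secreted target Tgfbi. They were 9 of the 20134 named genes with a value on all 16 arrays. No cut on measured values was used to choose them, but earlier results of these data were known. After adult brain hemisuction (ABH), Tgfbi was 3.73-fold and Tgfbr2 2.07-fold higher at 1 week than in the 10 weeks control pool. Tgfb1, the founding ligand of the family, was 1.79-fold higher in the mean but passed the limit with 1 dye only. None of the 9 genes was past the limits in the ABH pool at 4 weeks, nor in either pool after neonatal brain hemisuction (NBH).

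TGF-beta ligands are secreted as latent complexes bound to matrix proteins and have to be released before they signal. The active ligand binds the type II receptor Tgfbr2, which then recruits and phosphorylates the type I receptor Tgfbr1. Tgfbr1 phosphorylates Smad3 (and Smad2), which enters the nucleus with Smad4 and changes transcription, while Smad7 is an induced inhibitor that blocks Tgfbr1. In brain the pathway is known for keeping microglia in their resting state, for the astrocytic and fibrotic scar after injury, and for matrix production.

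The arrays carried RNA of the right neocortex rostral of bregma, the side opposite to the aspirated cortex, from C57BL/6J mice. Control pools came from mice without surgery at postnatal day 7 (P7), P14 and P35 and at 10 weeks. In the NBH pools the left cortex had been aspirated at P7, with sampling 1 week later at P14 or 4 weeks later at P35. In the ABH pools it had been aspirated in adults, with sampling 1 week later (labeled 11 weeks) or 4 weeks later (labeled 15 weeks). Each group was 1 RNA pool, made from 4 male animals according to the methods, and each pool was hybridized once with Cy3 on chip 1 and once with Cy5 on chip 2. The 2 arrays of a pool are repeat measurements of the same RNA. The SD of both dyes is therefore technical, the spread between animals is unknown, and no test between groups was possible. No sham surgery pool was analysed here. The 10 weeks control served both ABH pools, so these comparisons share their control arrays. This control was also younger than both ABH pools, so age and surgery cannot be told apart there. On both chips the controls occupied a different row of arrays than the surgery pools, so array row and surgery cannot be told apart.

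A level is the log2 signal of a probe minus the 75th percentile of all gene spots on the same array, so 0 is a fairly bright spot and 1 unit is a 2-fold step. Levels are compared between pools for the same probe and never between genes. A gene was called higher at 1.5-fold or more, or lower at 0.75-fold or less, with both dyes. On the log2 scale these limits are 0.58 and -0.42, so a smaller step suffices for a lower call than for a higher one. All 9 genes were well above background on 16 of 16 arrays and none was saturated. Between 60.2% and 72.2% of spots were well above background per array. The control P35 pool stood apart in 1 respect. Xist, the transcript that silences an X chromosome in female cells, was well above background there on both arrays with both of its probes (levels -2.81 and -1.53), and in no other pool with both dyes. This goes against an all-male pool, so the NBH 4 weeks changes were also taken against control 10 weeks. That control is older than the NBH 4 weeks pool, so these changes hold an age difference as well.

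Tgfbi encodes a secreted matrix protein that takes its name from its induction by TGF-beta. Its levels were -0.64 with Cy3 and -0.58 with Cy5 in control P7, -0.64 and -0.63 in control P14, -0.38 and -0.52 in control P35, and -0.52 and -0.56 in control 10 weeks. In the NBH pools they were -0.55 and -0.54 at 1 week and -0.47 and -0.63 at 4 weeks. In the ABH pools they were 1.39 and 1.33 at 1 week and -0.37 and -0.56 at 4 weeks. The ABH 1 week arrays thus stood alone, with no overlap with the other 14. The other 7 pool means lay between -0.63 and -0.45, and pools next to each other in their order were not separated by both dyes. The change of ABH 1 week against control 10 weeks was 1.91 with Cy3 and 1.89 with Cy5, a mean of 1.90 ± 0.012 (SD of 2 dyes, 1 pool per group). Ranked by this change, Tgfbi was number 109 of the 16320 genes compared.

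Tgfbr2 encodes the type II receptor that binds the ligand first. Its levels with Cy3 and Cy5 were 0.80 and 0.69 in control P7, 0.85 and 0.83 in control P14, 0.90 and 0.90 in control P35, and 0.82 and 0.86 in control 10 weeks. They were 0.90 and 1.06 in NBH 1 week and 0.95 and 1.06 in NBH 4 weeks. In ABH 1 week they reached 2.00 and 1.77, and in ABH 4 weeks 1.07 and 1.02. Again the ABH 1 week arrays lay above all others, and the control pools spanned only 0.15 from P7 to 10 weeks. The change of ABH 1 week was 1.05 ± 0.19, with 1.18 in Cy3 and 0.92 in Cy5, and its rank was 370. A second Tgfbr2 probe, much dimmer, did not pass the limits: its change was 0.44 ± 0.23 in ABH 1 week, and it read 0.57 ± 0.20 in NBH 1 week and 0.54 ± 0.32 in NBH 4 weeks, where the brighter probe gave 0.14 ± 0.13 and 0.10 ± 0.079. The NBH 4 weeks level of the dim probe was -2.99, against -3.53 in control P35 and -3.17 in control 10 weeks. The Tgfbr2 call therefore rests on 1 of 2 probes.

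Over the 8 pool means Tgfbi and Tgfbr2 ran together (Pearson r = 0.97, n = 8 pools), which is mostly their common high value in ABH 1 week. Because both moved with the same pool, the 250 bases before the RefSeq start of each gene are shown (build GRCm38.p6, 5′ to 3′ on the strand of the gene). Capitals mark CAGAC or its complement GTCTG, the core letters of a Smad binding element.
Tgfbr2 at chr9:116175364-116175613, minus strand: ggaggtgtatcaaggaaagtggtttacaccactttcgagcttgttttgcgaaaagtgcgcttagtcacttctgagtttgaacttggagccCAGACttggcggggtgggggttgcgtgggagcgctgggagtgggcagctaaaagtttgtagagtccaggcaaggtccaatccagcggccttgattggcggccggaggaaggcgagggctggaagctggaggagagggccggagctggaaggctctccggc
Tgfbi at chr13:56609336-56609585, plus strand: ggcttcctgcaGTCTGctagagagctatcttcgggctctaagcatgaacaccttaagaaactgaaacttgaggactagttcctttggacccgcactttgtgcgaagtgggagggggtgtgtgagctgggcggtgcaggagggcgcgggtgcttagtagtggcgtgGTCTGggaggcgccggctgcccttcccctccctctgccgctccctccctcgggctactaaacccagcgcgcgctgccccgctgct
CAGAC was found on either strand at 1 place before Tgfbr2 and 2 places before Tgfbi. The GC box GGGCGG was found 0 times and 1 time, and TATAAA in neither. In windows of the same length before 27025 starts, 42.1% held CAGAC, 32.9% GGGCGG and 13.0% TATAAA, so the letters are common and a match is a description only. Among genes not called, CAGAC was found at 2 places before Tgfb2 and at 1 place before a Tgfbr1 start. It was found at 0 places before another Tgfbr1 start and before Tgfb1, Inhba and Smad3.

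**Figure D1:**
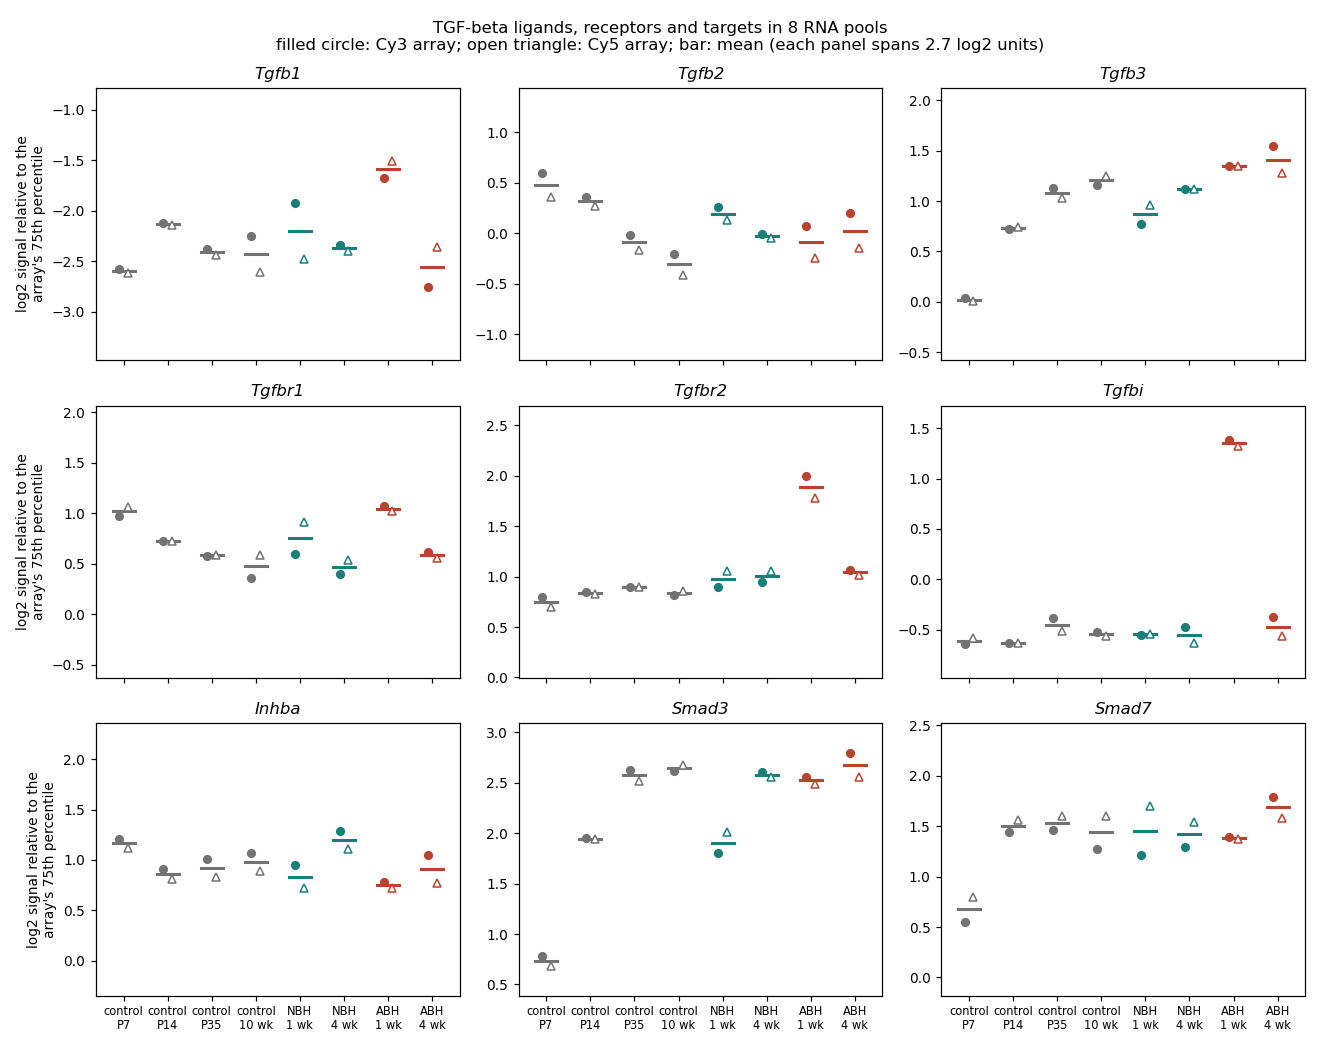
Level of each gene (y axis, log2 signal relative to the 75th percentile of the array) in the 8 RNA pools (x axis). Filled circles are Cy3 arrays, open triangles Cy5 arrays and bars their means, and every panel spans the same 2.7 log2 units. Tgfbi and Tgfbr2 lie apart in ABH 1 week, at means of 1.36 and 1.89, while Smad3 and Tgfb3 climb with control age.

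Among the ligands, Tgfb1 had its highest level in the same pool. Its levels with Cy3 and Cy5 were -2.57 and -2.62 in control P7, -2.12 and -2.14 in control P14, -2.38 and -2.44 in control P35, and -2.25 and -2.61 in control 10 weeks. They were -1.92 and -2.48 in NBH 1 week, -2.34 and -2.40 in NBH 4 weeks, -1.67 and -1.50 in ABH 1 week, and -2.75 and -2.36 in ABH 4 weeks. Both ABH 1 week arrays were above the other 14, but dye spread was wide in several pools. The change of ABH 1 week was 0.57 with Cy3, just under the limit of 0.58, and 1.11 with Cy5, a mean of 0.84 ± 0.38. Tgfb1 was therefore not called, and it was called under several other settings given in the closing section.

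Tgfb2 and Tgfb3, the other TGF-beta ligands, and Inhba, the beta A subunit of activin A and of an inhibin, were not past the limits after surgery. In ABH 1 week Tgfb2 changed by 0.22 ± 0.079, Tgfb3 by 0.14 ± 0.060 and Inhba by -0.22 ± 0.092. In ABH 4 weeks the values were 0.33 ± 0.10 for Tgfb2, 0.21 ± 0.25 for Tgfb3 and -0.071 ± 0.061 for Inhba. Tgfb2 read above the control with both dyes in both ABH pools, each time below the 1.5-fold limit, but its second probe read 0.16 with Cy3 and -0.089 with Cy5 at 1 week, and the 1 week change against control P35 was 0.0011. In the NBH pools Tgfb2 changed by -0.12 ± 0.026 at 1 week and 0.064 ± 0.071 at 4 weeks. The 4 weeks change was 0.28 against control 10 weeks, where the level was -0.31, beside -0.091 in control P35. Inhba changed in NBH 4 weeks by 0.28 with both dyes (SD below 0.01), and by 0.22 against control 10 weeks.

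Tgfbr1, the type I receptor, also read higher in ABH 1 week but was not called. Its levels there were 1.07 with Cy3 and 1.02 with Cy5, against 0.36 and 0.59 in control 10 weeks. The change was 0.71 with Cy3, past the limit, and 0.43 with Cy5, short of it, a mean of 0.57 ± 0.20. Control P7 read 0.98 and 1.06, and the dyes did not agree on which of these pools was higher. A second, dim Tgfbr1 probe gave -0.24 ± 0.20 for the same comparison, so the probes of this gene disagreed in sign.

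Smad3 and Smad7 were close to control after every surgery. In ABH 1 week Smad3 changed by -0.12 ± 0.10 and Smad7 by -0.053 ± 0.24. In ABH 4 weeks they changed by 0.031 ± 0.22 and 0.25 ± 0.37. For Smad7 the Cy3 value of that pool was 0.51 and the Cy5 value -0.015, so the mean is less than the spread of the dyes. A second, dim Smad3 probe gave -0.35 ± 0.051 in ABH 1 week, again within the limits.

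**Figure D2:**
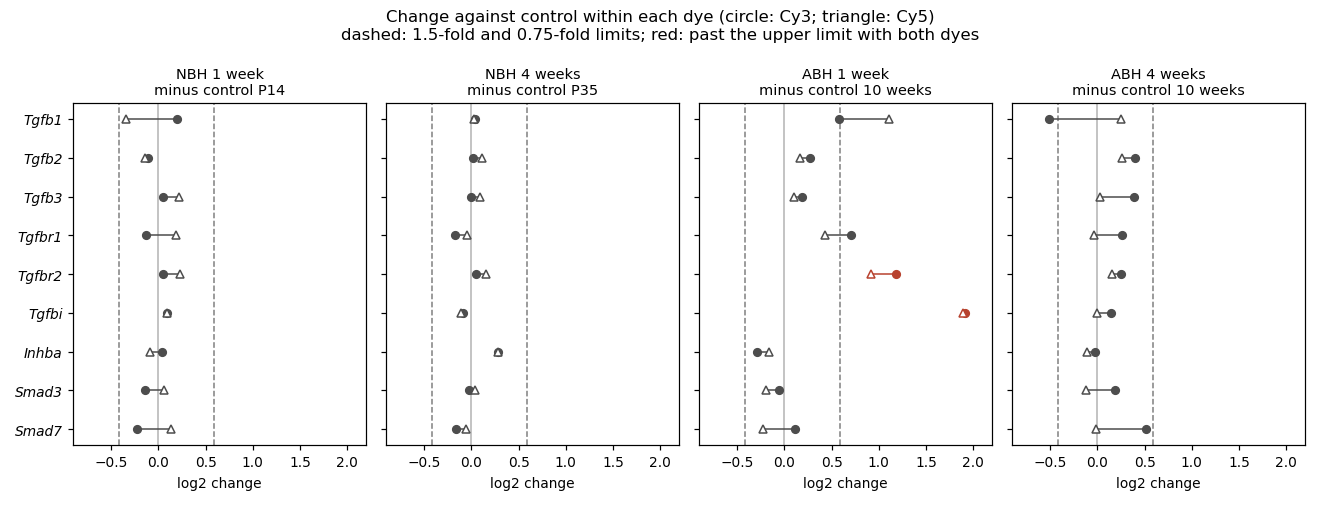
Log2 change of each gene (x axis) in the 4 surgery comparisons, with the genes in rows. Circles are Cy3, triangles Cy5, a line joins both dyes, and dashed lines mark the 1.5-fold and 0.75-fold limits. Only Tgfbr2 and Tgfbi in ABH 1 week, in red, are past a limit with both dyes.

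In all, 2 of 9 genes were called higher and 0 lower in ABH 1 week, where 4.44% of all genes compared were called higher and 6.37% lower. The median change of the 9 genes was 0.22, against -0.076 over all genes. Other scalings changed the balance of calls over all genes, from 725 higher and 1039 lower to 973 and 392 under quantile normalization and to 1266 and 313 under median scaling. Tgfbi and Tgfbr2 were called higher under each of these. In the other surgery comparisons 0 of 9 genes were called. Their changes lay between -0.12 and 0.14 in NBH 1 week, between -0.11 and 0.28 in NBH 4 weeks and between -0.13 and 0.33 in ABH 4 weeks. Against control 10 weeks in place of control P35, the NBH 4 weeks changes lay between -0.084 and 0.28, with 0 called. The shares of all genes called in either direction were 0.899%, 0.964% and 0.626%, so with 9 genes a count of 0 is close to the background. Read side by side, Tgfbi changed after NBH by 0.089 ± 0.0028 at 1 week and -0.098 ± 0.019 at 4 weeks (-0.0034 against control 10 weeks), and after ABH by 1.90 ± 0.012 at 1 week and 0.075 ± 0.11 at 4 weeks. Whether NBH and ABH differ could not be tested with 1 pool per group, and both age and size of the lesion differed between them.

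Between 1 and 4 weeks after ABH, 4 of 9 genes were lower and 0 higher, with 4.95% of all genes called lower. Tgfbi was 3.55-fold lower at 4 weeks, Tgfb1 1.96-fold, Tgfbr2 1.79-fold and Tgfbr1 1.37-fold. The log2 changes were -1.83 ± 0.093, -0.97 ± 0.16, -0.84 ± 0.12 and -0.46 ± 0.0077. A lower call needs a smaller step (-0.42) than a higher call (0.58). Tgfbr1 was called here at -0.46, while its 0.57 in ABH 1 week against the control was not called. The comparison of 4 weeks with 1 week uses the same ABH 1 week arrays as the one against the control and adds no separate evidence that they were high. The ABH pools also differed in age. The second Tgfbr1 probe read 0.23 ± 0.48 here, the opposite sign, and the second Tgfbr2 probe -0.20 ± 0.13, not called. Over all genes 614 were called higher and 801 lower, which became 168 and 1135 under quantile normalization and 134 and 1911 under median scaling.

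Smad3, Tgfb3 and Smad7 differed more between control ages than after any surgery. Smad3 was at 0.73 in P7, 1.95 in P14, 2.57 in P35 and 2.65 at 10 weeks, 3.77-fold higher at 10 weeks than at P7. Tgfb3 was at 0.021, 0.74, 1.08 and 1.20 in the same order, 2.27-fold higher. Smad7 stepped from 0.67 in P7 to arrays at 1.44 and 1.56 in P14 and then lay at 1.53 and 1.44, 1.70-fold higher at 10 weeks. Tgfb2 went the other way, from 0.48 and 0.32 to -0.091 and -0.31, 1.72-fold lower, and its second probe read -0.81 ± 0.15. Tgfbr1 went from 1.02 and 0.73 to 0.58 and 0.48, 1.46-fold lower. With their second, dim probes Smad3 (at least 1.83-fold in the mean, P7 not well above background) and Tgfbr1 (-0.34 ± 0.15) were not called. The NBH pools lay near the control of their own age, with Smad3 at 1.91 in NBH 1 week and 2.58 in NBH 4 weeks. Thus 3 of 9 genes were called higher and 2 lower from P7 to 10 weeks, beside 15.7% and 21.1% of all genes, shares at which such counts say nothing particular of these genes. The split over all genes was 2570 higher and 3453 lower, and 1153 and 6180 under median scaling.

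The other genes of the pathway were taken from 6 lists by role, 90 genes in all. In ABH 1 week 18 of the 87 genes compared were called higher and 2 lower, with a median of 0.051 against -0.076 over all genes, where 4.44% of all genes were called higher and 6.37% lower. In NBH 1 week (84 compared), NBH 4 weeks (83) and ABH 4 weeks (85) none was called, near the background of 0.899%, 0.964% and 0.626% called over all genes. From 1 to 4 weeks after ABH 21 of 86 were lower and 0 higher, with 4.95% of all genes lower.

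Of the 25 targets of TGF-beta and bone morphogenetic protein (BMP), 10 were higher and 1 lower in ABH 1 week. Over all genes the shares were 4.44% higher and 6.37% lower. Col1a1, the alpha 1 chain of the fibril-forming type I collagen, went from -0.70 in control 10 weeks to 3.90, a change of 4.59 with 4.77 in Cy3 and 4.42 in Cy5. Col3a1, the type III collagen chain, was 21.6-fold higher and Col1a2, the partner chain in type I collagen, 10.9-fold. Postn, a matricellular protein of scars, was 6.63-fold higher, Timp1, an inhibitor of matrix metalloproteinases, 6.36-fold, and Vim, an intermediate filament of glia and mesenchyme, 5.32-fold. Klf10, an early TGF-beta response gene, was lower, with -0.49 in Cy3 and -0.60 in Cy5. The well-known early target Ccn2, which lies outside the rule for naming and was picked after its value was seen, read -0.012. The list therefore did not move as 1 block: 14 of its 25 genes were not called.

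The counts of this paragraph are for ABH 1 week, where 4.44% of all genes were called higher and 6.37% lower. Of the genes of TGF-beta latency and activation, 4 of 12 compared were higher and 0 lower, with a list median of 0.38 against -0.076 over all genes. They were Ltbp2, which belongs to the family of latent TGF-beta binding proteins, at 3.27-fold, Thbs1, an activator of the latent ligand, at 3.34-fold, Fbn1, the microfibril protein that anchors latent complexes, at 2.42-fold, and Nrros, which holds latent TGF-beta on microglia and macrophages, at 1.95-fold. These 4 were named because the count is small, after their values were seen, as were the other genes of this paragraph except Grem1. Of the other ligands, 1 of 14 was higher: Gdf15, a stress-induced cytokine, was at least 3.19-fold higher, as control 10 weeks was not well above background. Of 10 extracellular antagonists, Dcn, a proteoglycan that binds TGF-beta, (2.44-fold) and Fstl1 (1.98-fold) were higher. Grem1, a BMP antagonist, was lower, with -0.54 in Cy3 and -1.91 in Cy5 (SD 0.97). Its level in ABH 1 week, -3.54, was close to the lowest signals well above background, between -4.30 and -3.62 per array. Of 15 other Smads and regulators only Tgif1, a Smad corepressor, was higher, at 2.30-fold. None of the 11 other receptors and co-receptors was called, with changes between -0.28 for Bmpr2 and 0.37 for Tgfbr3.

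**Figure D3:**
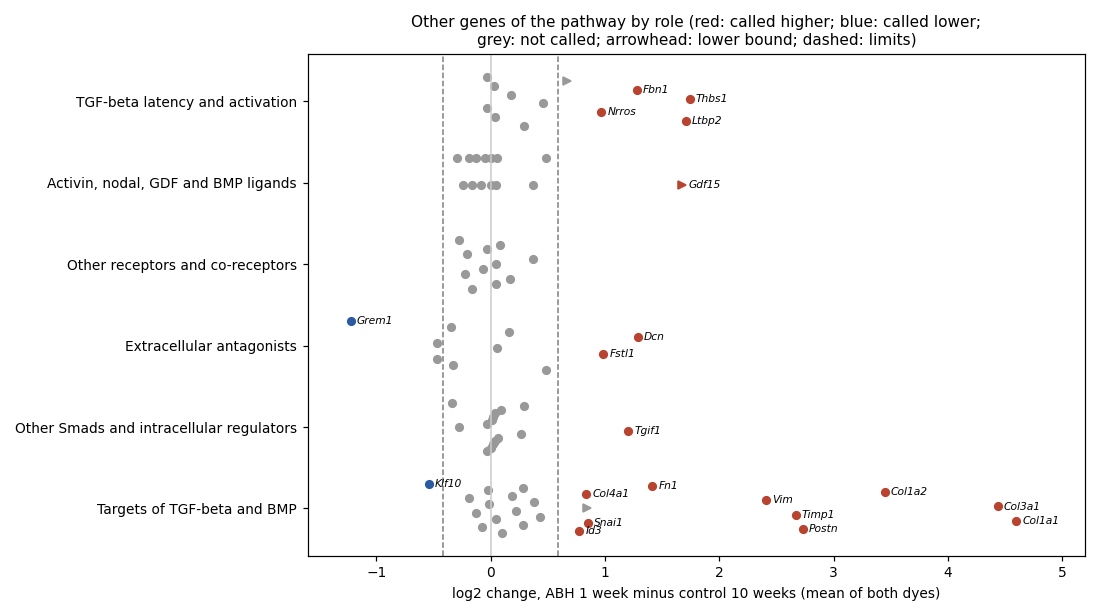
Log2 change in ABH 1 week against control 10 weeks (x axis, mean of both dyes) of the 87 other pathway genes compared, in rows by role. Red points were called higher, blue lower and grey not at all, arrowheads are lower bounds and dashed lines the limits. The 10 higher targets reach from Id3 at 0.78 to Col1a1 at 4.59, and no receptor is called.

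Several of these genes mark cell types, and the same pool differed from its control in such markers. Whole tissue cannot tell more cells of a type from more RNA per cell. The counts of this paragraph stand beside 4.44% of all genes called higher and 6.37% called lower in ABH 1 week. In ABH 1 week 5 of 8 microglial markers were higher (Cx3cr1 1.87-fold, P2ry12 1.40-fold and Tmem119 1.31-fold, the last 2 not called). Their summed signal, in units of the array's 75th percentile, was 82.7 against 42.7 in control 10 weeks and between 28.2 and 53.2 in the other pools. Of the phagocyte genes of a changed state, 5 of 6 were higher, led by Gpnmb (70.7-fold), Spp1 (63.0-fold) and Lgals3 (46.8-fold). Of the leptomeningeal and perivascular fibroblast markers 5 of 8 were higher, with a summed signal of 61.9 against 10.2, and between 9.68 and 19.9 in the other pools. However, 4 of these 5 (Col1a1, Col1a2, Col3a1 and Dcn) are also in the pathway lists, and of the 4 markers that are not, 1 (Lum, 5.41-fold) was higher. Of 6 astrocyte markers Gfap (7.59-fold) and Vim, which the target list also holds, were higher, with a summed signal of 76.1 against 35.4. Without the 5 genes shared with marker lists, 13 of 82 pathway genes were higher and 2 lower. This takes out only genes on these lists, so genes of the same cell types, such as Nrros, remain. Of the macrophage and monocyte markers 2 of 6 compared were higher. Msr1 was at least 2.52-fold higher, Ccr2 was not called, and Cd163 was not well above background in either pool. Endothelial and pericyte markers (8 compared), neocortical neuron markers (8) and oligodendrocyte markers (6) had none called. Of 4 T cell markers compared 0 were higher and 1, Cd8a, was lower, and Cd3d was not well above background in either pool. Striatal neuron markers (6) had none called, choroid plexus markers 1 higher (Aqp1) and 1 lower (Slc4a5) of 6, and red cell markers 1 higher of 3. The part of these cells in the higher Tgfbi, Tgfbr2 and Tgfb1 signals was not tested.

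Markers also differed in the pools where the 9 genes were not called. Of the phagocyte genes of a changed state, 3 of 5 compared were higher in NBH 1 week, 1 of 5 in NBH 4 weeks and 0 of 6 in ABH 4 weeks. Over all genes, 0.472%, 0.214% and 0.43% were called higher in the same order. In NBH 1 week the changes of Gpnmb (2.21-fold) and Spp1 (1.97-fold) are lower bounds, as control P14 was not well above background on both arrays. Choroid plexus markers, such as Ttr, summed to 35.9 in NBH 1 week, 16.9 in NBH 4 weeks and 27.9 in ABH 4 weeks, against at most 2.32 in the controls and 1.65 in ABH 1 week. Striatal neuron markers summed to 55.5 in NBH 4 weeks against 79.6 in control P35 and 54.2 in control 10 weeks, and to 85.9 in ABH 4 weeks. The part of these cells in the small changes of the 9 genes there was not tested.

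**Figure D4:**
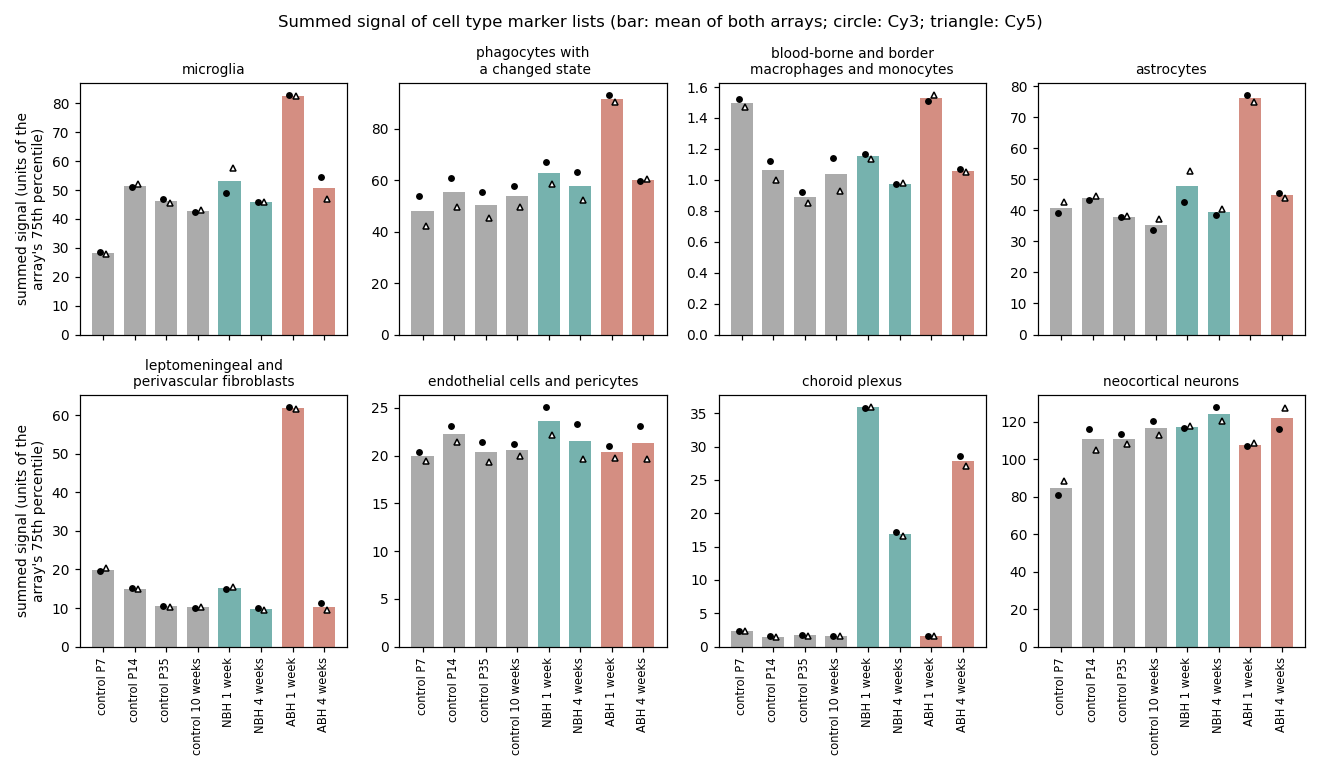
Summed signal (y axis, in units of the array's 75th percentile, from 0) of 8 marker lists in the 8 pools. Bars are means of both arrays, circles Cy3 and triangles Cy5, and each sum is led by its brightest probes. Microglial, phagocyte, astrocyte and fibroblast sums are highest in ABH 1 week, while choroid plexus sums are high in the other surgery pools.

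The genes with the profile most like the called pair over the 8 pool means were found among 14468 genes well above background on all arrays. For Tgfbr2 they were Igsf6 (r = 0.996), Tyrobp, a signaling adaptor of microglia and other myeloid cells (r = 0.994), and Slc11a1, a metal transporter of phagocyte lysosomes (r = 0.994). For Tgfbi they were Tcirg1, a subunit of the vacuolar proton pump (r = 0.996), Ms4a7, a macrophage membrane protein (r = 0.991), and Glipr1 (r = 0.991). The changes of these 6 genes in ABH 1 week reached from 1.17 for Tcirg1 to 3.52 for Ms4a7. With 8 points such an r mainly says that the same pool was high. Tgfb1 had r = 0.85 with each of the called genes.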

How the data were processed

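RNA of 8 pools (4 of controls, 4 after surgery) was measured on 16 Agilent mouse 8 × 60 K arrays. Per the file headers and labels, the deposited intensity values are scanner signals from Agilent Feature Extraction 11.0.1.1. The deposited value table holds the authors' processed intensity per spot, which differed from the scanner files by at most 0.497% and served as an alternative.

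In the channel that held the dye, the spot median was corrected with normexp on the local median background (offset 50, limma 3.58.1 in R 4.3.3) over all spots and put on a log2 scale. Each array's 75th percentile over its 59305 gene spots was subtracted. Spots with outlier marks (140 to 237 per array) were dropped and spots of a probe averaged. Of 55681 probes, 26582 were named by RefSeq accession (GRCm38.p6, names only). A gene took the probe with the highest mean over all arrays. It was compared where both arrays of 1 or both pools were well above background. A dim pool was set to the array's lowest signal of that quality, which makes the change a bound. Calls needed 1.5-fold or 0.75-fold with both dyes. With 1 pool per group no test was run, and the number of arrays limits the precision. The call rule was tested on simulated data with changes well past the limits, so changes near the limits and those of dim genes were not covered. Promoters of 7 of 9 genes were matched by symbol.

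Named beside the 9 genes were up to 6 pathway genes called each way, the 3 most similar genes of each called gene, up to 3 markers per list, and Xist. The genes and lists were chosen with earlier results of these data known. An item of the target list is not reported here. Alternatives were other signals, scalings, filters, limits, controls, probes and 1 dye alone.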

Additional observations from a re-analysis of the deposited data

Results flagged for a closer look

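In 3 cases both dyes of a gene moved one way after NBH and the opposite way after ABH at the same interval. At 1 week Tgfb2 changed by -0.12 in NBH and by 0.22 in ABH. Its second probe read 0.17 and 0.036, with dyes of mixed sign in both, so it did not show this. At 4 weeks Tgfbi changed by -0.098 in NBH and by 0.075 in ABH, the latter with 0.15 in Cy3 and only 0.00055 in Cy5. The NBH value is against control P35, and against control 10 weeks it was -0.0034. The ABH value is against control 10 weeks, and against control P35 it was -0.020, so its sign depends on the control. At 4 weeks Inhba changed by 0.28 in NBH and by -0.071 in ABH. None of these 6 changes was past a limit, and the difference was not tested in any of the 3, since each group was 1 pool.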

How the results depend on the processing

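Of 591 values of single genes under 11 other settings and other probes, 564 kept their direction, where called, and their side of the limits, 15 lost a call, 11 gained one and 1 reversed (Tgfbr1 from 1 to 4 weeks after ABH, 0.23 with its second probe). In ABH 1 week Tgfbi lay between 1.81 and 2.16 and was called in 11 of 11 settings. Tgfbr2 lay between 0.44, its second probe, and 1.31, and also lost its call at 2-fold limits. Tgfb1 lay between 0.57 and 1.18 and was called in 7 of 11 settings, among them Cy5 alone and every other scaling. The genes called higher in ABH 1 week numbered 4 with median scaling (Tgfb1 and Tgfbr1 added), 1 with 2-fold limits and 3 with either dye alone. Of all 16320 genes compared there, 1266 were higher with median scaling and 357 with 2-fold limits. With 1 dye, 898 of 16754 were higher with Cy3 and 1004 of 16893 with Cy5. Median scaling moved the median of all genes there from -0.076 to 0.18. In ABH 4 weeks 1 gene was called lower with Cy3 alone (Tgfb1, -0.51) and 0 with Cy5 alone. The counts over all genes were 966 of 16953 lower with Cy3 and 209 of 16683 with Cy5. From P7 to 10 weeks 1 gene was lower with quantile normalization and 0 with 2-fold limits, beside 3379 and 983 of all 16367 genes. Inhba was added as lower with median scaling (-0.50), where 6180 of all genes were lower. Smad7 lost its call with the unscaled value table (0.60), median scaling (0.45) and 2-fold limits. From 1 to 4 weeks after ABH 1 was lower with 2-fold limits, beside 297 of 16189 over all genes. The causes were not tested. The mean spot signal could not be used in place of the median and was not run. No paired analysis was possible because each group is 1 pool.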
